A study of Arabidopsis thaliana with 210 samples.

Results

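The B-type cyclins and B-type cyclin-dependent kinases (CDKs), which drive plant cells into mitosis, were followed in RNA of nuclei from the Arabidopsis thaliana shoot apex. The members were 6 cyclins and 4 kinases, chosen by their identifiers out of 29696 genes in the deposited table, and all 10 had counts. In the TAIR10.1 annotation the cyclins are CYCB1;1 (AT4G37490, chr4:17621886-17624308), CYCB1;2 (AT5G06150, chr5:1859279-1861703), CYCB1;3 (AT3G11520, chr3:3625286-3627273), CYCB1;4 (AT2G26760, chr2:11401118-11403433), CYCB2;1 (AT2G17620, chr2:7664055-7666522) and CYCB2;2 (AT4G35620, chr4:16901596-16904001). The kinases are CDKB1;1 (AT3G54180, chr3:20059671-20061488), CDKB1;2 (AT2G38620, chr2:16152473-16154086), CDKB2;1 (AT1G76540, chr1:28720328-28722550) and CDKB2;2 (AT1G20930, chr1:7292389-7294746). All 10 are annotated as protein-coding, with 2 to 10 exons. The plants were seedlings of the ecotype Col-0, harvested 7 days after germination, and no treatment or mutant allele is named. Every well carries stem cells as its labelled cell type. The groups were 1 bulk well of p1 and 1 of p2, 93 single nuclei of p1 and 93 of p2 prepared with Smart-seq2, 8 single nuclei of p1 and 12 of p2 prepared with Smart-seq3, and 2 negative control wells of p2 that received no nucleus. What p1 and p2 stand for is not stated. According to the labels a bulk well was given 50 nuclei, but the bulk column names hold a 10, so the number pooled is uncertain. An mCherry reporter is listed in the table, but its promoter and the line that carries it are not named in the labels.

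A CDK is active only when bound to a cyclin, and mitotic cyclins are made and destroyed in each round of division. In plants, the B-type cyclins and the plant-specific B-type CDKs accumulate from late S phase to mitosis, when the complex drives entry into mitosis. Many of their genes are activated then through a promoter element, the mitosis-specific activator (MSA) element, which is bound by transcription factors of the MYB3R family. The cyclin proteins are marked for degradation by the anaphase-promoting complex (APC/C) as mitosis ends. In a growing meristem the transcripts of these cyclins are found in scattered, dividing cells.

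Totals on genes came to 1945890 counts in the bulk well of p1 and 1253317 in that of p2. The median Smart-seq2 nucleus held 1310185 counts in p1 (1362 to 8102382) and 375146 counts in p2 (153 to 1236901), and the median Smart-seq3 nucleus 55305 in p1 and 605497 in p2. At least 100000 counts were reached by 57 of 93 Smart-seq2 nuclei of p1 and 81 of 93 of p2, here called the deeper nuclei. Both negative control wells together held a single count of any member, for CYCB1;4, among 7953 and 8676 counts on genes, and none was measured for p1 or for Smart-seq3. A gene was called in a nucleus from 5 counts. By that rule the stem cell marker CLV3 was called in 15 of 93 Smart-seq2 nuclei of p1 and 5 of 93 of p2, the meristem gene STM in 18 and 26, and WUS in 1 and 2, so each marked a minority of nuclei. The mesophyll markers RBCS1A and LHCB1.3 were called in all 138 deeper nuclei and held 5 counts each over both negative control wells. A plant, pool or sort is not named for any nucleus, so a group was taken as 1 sample, and no p-value is given. Intervals are exact 95% intervals that cover counting error only, of reads or, for a share, of nuclei within 1 sample. They therefore do not test p1 against p2. Smart-seq2 reads carry no molecular identifiers, and whether the Smart-seq3 counts used any is not given in the sources used here.

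The stretch upstream of the genes is shown first because the members differ in it. In the 250 bases before the annotated start, the motif AACGG, the core of the MSA element, was searched on both strands, where it reads CCGTT on the other. It was found in 5 of 6 cyclins and 1 of 4 kinases, against 20.6% of 27443 protein-coding genes. The windows of CDKB1;1 and CDKB2;1 overlap another annotated gene, and those of the other members do not. At least 2 copies stood before 5 of the 10 members, all of them cyclins, against 3.62% of protein-coding genes. The sequences of the 6 genes with a copy follow, 5′ to 3′ in the direction of the gene, with each copy in capitals. They were read from the RefSeq assembly TAIR10.1, in the order given at chr4:17624309-17624558 (minus strand), chr5:1861704-1861953 (minus strand), chr3:3627274-3627523 (minus strand), chr2:7663805-7664054 (plus strand), chr4:16901346-16901595 (plus strand) and chr1:7294747-7294996 (minus strand).
CYCB1;1: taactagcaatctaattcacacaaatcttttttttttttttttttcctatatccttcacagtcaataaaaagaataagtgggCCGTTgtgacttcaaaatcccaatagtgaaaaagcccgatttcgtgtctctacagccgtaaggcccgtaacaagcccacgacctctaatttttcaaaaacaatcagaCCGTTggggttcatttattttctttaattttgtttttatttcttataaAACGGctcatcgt
CYCB1;2: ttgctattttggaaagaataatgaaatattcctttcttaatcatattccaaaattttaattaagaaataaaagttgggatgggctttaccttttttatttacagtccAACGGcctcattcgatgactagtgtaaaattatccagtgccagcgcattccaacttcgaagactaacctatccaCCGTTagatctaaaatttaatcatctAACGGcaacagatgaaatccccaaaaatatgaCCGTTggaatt
CYCB1;3: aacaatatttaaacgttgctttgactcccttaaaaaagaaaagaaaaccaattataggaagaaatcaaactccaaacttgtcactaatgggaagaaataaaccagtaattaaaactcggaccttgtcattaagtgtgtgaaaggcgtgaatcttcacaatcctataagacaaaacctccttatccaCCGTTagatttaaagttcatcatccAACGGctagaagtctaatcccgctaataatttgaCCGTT
CYCB2;1: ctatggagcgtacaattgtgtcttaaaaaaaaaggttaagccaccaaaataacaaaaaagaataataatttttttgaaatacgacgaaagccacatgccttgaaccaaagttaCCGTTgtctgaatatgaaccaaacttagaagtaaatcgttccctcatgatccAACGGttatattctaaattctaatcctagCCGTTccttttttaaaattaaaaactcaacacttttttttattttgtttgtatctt
CYCB2;2: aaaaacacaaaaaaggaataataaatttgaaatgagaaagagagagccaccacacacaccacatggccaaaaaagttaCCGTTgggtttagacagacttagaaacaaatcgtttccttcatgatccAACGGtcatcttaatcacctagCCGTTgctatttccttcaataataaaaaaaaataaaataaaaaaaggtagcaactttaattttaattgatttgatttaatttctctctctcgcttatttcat
CDKB2;2: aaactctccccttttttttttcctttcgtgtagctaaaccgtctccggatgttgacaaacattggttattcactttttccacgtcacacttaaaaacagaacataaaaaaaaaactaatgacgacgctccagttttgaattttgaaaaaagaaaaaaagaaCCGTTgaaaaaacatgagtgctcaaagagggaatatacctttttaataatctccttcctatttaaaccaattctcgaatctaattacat

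The copies numbered 4 in the second of these sequences, 3 in each of the other cyclins and 1 in the kinase, and the members not shown had none in this window. They were arranged alike within pairs of related cyclins. Both CYCB2 genes carried a reverse, a forward and a reverse copy in that order, and so did CYCB1;3 and the last 3 copies of CYCB1;2. The longest run of bases shared by the windows was 15 for each of these pairs of genes, the longest among all 45 pairs of windows. The copy nearest to the gene lay 1 base before the annotated start in CYCB1;3 and up to 98 bases before it in CYCB2;2. A match describes these letters only.

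In the bulk wells the counting intervals of p1 and p2 overlapped for each of the 6 cyclins. CYCB1;1, the cyclin most used as a reporter of dividing cells, had 161 counts in bulk p1 and 98 in bulk p2, which is 82.7 CPM (counts per 1000000 counts on genes, interval 70.5 to 96.6) and 78.2 CPM (63.5 to 95.3). CYCB1;2 had 498 counts (256 CPM, 234 to 279) in bulk p1 and 342 counts (273 CPM, 245 to 303) in bulk p2. CYCB1;3 had 85 counts (43.7 CPM) and 71 (56.6 CPM). CYCB1;4 had 118 counts (60.6 CPM) in bulk p1 and 75 (59.8 CPM) in bulk p2. Of the CYCB2 genes, the first had 62 counts (31.9 CPM) and 46 (36.7 CPM) and the second 95 (48.8 CPM) and 45 (35.9 CPM).

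Per kilobase of transcript, 3 of the 4 kinases stood below every cyclin in both bulk wells and 1 did so in bulk p2 only. CDKB2;1, which with its paralog is known to be needed for an ordered shoot meristem, had 80 counts (41.1 CPM, 32.6 to 51.2) in bulk p1 and 18 (14.4 CPM, 8.51 to 22.7) in bulk p2, with intervals that did not overlap. Its paralog had 3 counts (1.54 CPM, 0.318 to 4.51) and 10 (7.98 CPM, 3.83 to 14.7). CDKB1;1, known for its part in the divisions of the stomatal lineage, had 2 counts (1.03 CPM, 0.124 to 3.71) and 8 (6.38 CPM, 2.76 to 12.6). The other CDKB1 gene had 13 counts (6.68 CPM) in bulk p1 and 5 (3.99 CPM) in bulk p2. For these 3 kinases the intervals overlapped.

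Set per kilobase of the longest annotated transcript, so that genes can be compared with each other, CYCB1;2 came first in both bulk wells. It stood at 144 CPM per kilobase (131 to 157) in bulk p1 and 153 (138 to 171) in bulk p2, clear of the second, CYCB1;1, at 50.8 (43.2 to 59.2) and 48 (38.9 to 58.5). In bulk p1 the next 5 places were held by CDKB2;1 (30.1) and the other 4 cyclins (33.2 to 19.2), each with an interval that overlapped that of its neighbour among these 5. The other 3 kinases came last at 0.745 to 4.65 CPM per kilobase, and the highest of their intervals (2.47 to 7.94) lay below that of the lowest cyclin (14.7 to 24.6). In bulk p2 the 6 cyclins held the first 6 places and the 4 kinases the last 4. From the second place downwards every interval overlapped that of its neighbour.

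The single nuclei gave another balance of cyclins and kinases. All 10 members together took 574 CPM in bulk p1 and 573 in bulk p2, against 334 CPM in the summed 93 Smart-seq2 nuclei of p1 and 287 in those of p2. The cyclins held 91.2% (89.4 to 92.8) of the member counts in bulk p1 and 94.3% (92.3 to 95.9) in bulk p2, against 65.9% (65.5 to 66.4) in the summed nuclei of p1 and 61.4% (60.5 to 62.3) in those of p2. The share in each bulk well thus lay above that in both sums. Given equal weight per nucleus, the share in single nuclei was 73.4% in p1 and 62.2% in p2, and without the nucleus with the most member counts it was 61% and 55.2%. Per kilobase, CDKB2;1 stood second in the sum of p1 at 53.8 CPM, next to CYCB1;2 at 57.8, and first in the sum of p2 at 44.6, ahead of the same cyclin at 24.7. These sums rest on few nuclei, as the counts per nucleus show, so their counting intervals understate the error. In a bulk well, fewer cells that express a gene and less of its RNA per cell cannot be told apart.

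Gene by gene, each of the 6 cyclins had a higher CPM in the bulk well than in the summed nuclei, in p1 and again in p2. Nuclear genes were compared if they had at least 50 counts over the bulk wells and summed nuclei of p1 and p2 together. Of 16894 such genes with a ratio in both p1 and p2, 25.3% were higher in both bulk wells and 24.8% were lower in both. The median log2 ratio over the cyclins was 1.26 in p1 and 1.13 in p2, against -0.01 and -0.02 over all genes tested. The 6 cyclins are not independent of each other.

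CYCB1;2 had 256 CPM in bulk p1 against 103 in the summed nuclei of p1, and 273 CPM in bulk p2 against 43.9 in those of p2, log2 ratios of 1.31 (1.18 to 1.44) and 2.64 (2.46 to 2.80). CYCB1;1 had ratios of 0.72 (0.49 to 0.95) in p1 and 1.33 (1.02 to 1.63) in p2. The other CYCB1 genes had ratios of 0.76 and 0.71 for the third and of 1.25 and 0.93 for the fourth. The intervals of these 4 CYCB1 genes lay wholly above 0 in p1 and p2. The CYCB2 genes were less even. CYCB2;1 had 31.9 CPM in bulk p1 against 13.2 in the nuclei of p1, and 36.7 CPM in bulk p2 against 3.46 in those of p2, ratios of 1.27 and 3.41. CYCB2;2 had 48.8 CPM in bulk p1 against 2.84 in the nuclei of p1, and 35.9 CPM in bulk p2 against 31.8 in those of p2, ratios of 4.10 (3.76 to 4.43) and 0.18 (-0.29 to 0.60). The interval of the second spans 0, and that ratio rounded to 0 with scaling by the trimmed mean of M-values (TMM), which moved the median of all genes to -0.15 in p1 and -0.19 in p2.

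Among the kinases, 3 of 4 had a lower CPM in the bulk well in p1 and also in p2. CDKB2;1 had 41.1 CPM in bulk p1 against 73.6 in the summed nuclei of p1, and 14.4 CPM in bulk p2 against 60.9 in those of p2, ratios of -0.84 (-1.18 to -0.52) and -2.08 (-2.84 to -1.42). CDKB2;2 had 1.54 CPM in bulk p1 against 38.1 in the nuclei, and 7.98 CPM in bulk p2 against 25.6, ratios of -4.63 (-6.90 to -3.08) and -1.68 (-2.75 to -0.80). The first CDKB1 gene was at -0.88 (-3.94 to 0.98) and -1.20 (-2.42 to -0.22), and with 2 counts in bulk p1 the interval of the first spans 0. The second went both ways, with 6.68 CPM in bulk p1 against 0.269 in the nuclei of p1, and 3.99 CPM in bulk p2 against 9.59 in those of p2, ratios of 4.63 (3.60 to 5.58) and -1.26 (-2.90 to -0.03).

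Beyond 4-fold in p1, 2 members were higher in the bulk well and 1 was lower, against 11.4% and 11.2% of all genes tested. In p2, 2 members were higher and 1 was lower, against 7.98% and 9.8% of genes. No member lay beyond 4-fold the same way in both, as did 1.3% of genes upwards and 1.59% downwards. A single nucleus bears on these ratios. Without the nucleus that held the most counts of each member, which lowers the summed nuclei by construction, the median ratio of the cyclins was 1.95 in p1 and 2.13 in p2 and that of the kinases -0.21 and -0.41. Over the other alternatives, 71 of 72 cyclin ratios were above 0 and the remaining one was the ratio that rounded to 0. Of 48 kinase ratios, 42 were below 0. Dropping the minimum of counts left these ratios as they were, and a change of scaling moves all genes alike. Many of these ratios could therefore hardly change sign. Without its richest nucleus, the ratio of the first CDKB1 gene in p1 was 0.14, the opposite sign.

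**Figure D1:**
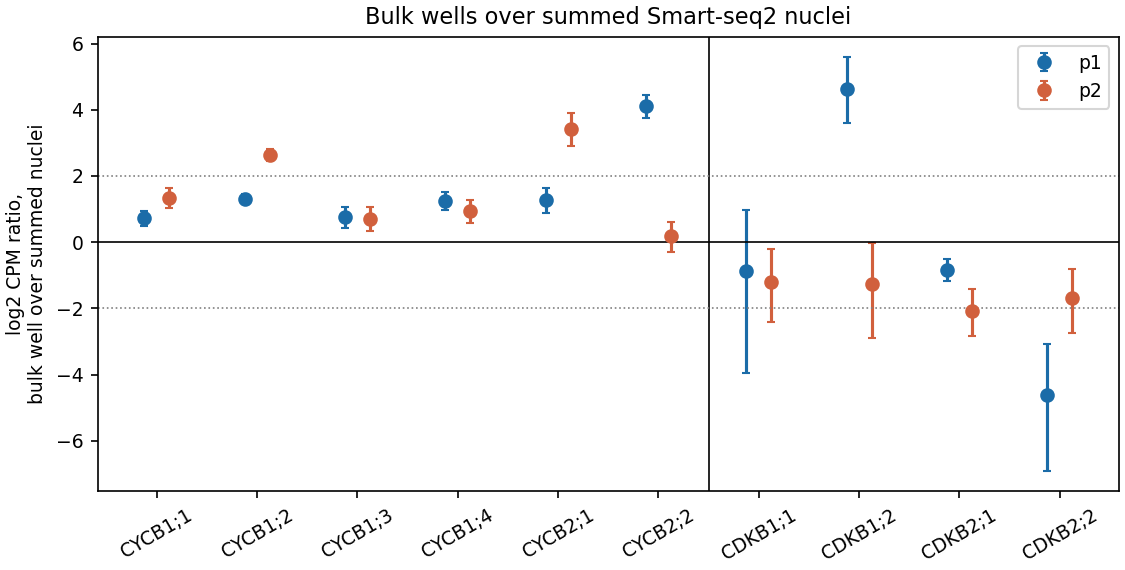
Log2 ratio of CPM in the bulk well over the 93 summed Smart-seq2 nuclei for the 10 members, in p1 and p2, with bars for the exact 95% interval of the counts and dotted lines at 4-fold. The 6 cyclins lie above 0 in p1 and p2, the lowest at 0.18, and of the kinases only CDKB1;2 in p1 lies above 0.

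The kinase values carry a limit of annotation that the cyclins lack. In TAIR10.1 the 3′ end of each of the 4 kinase genes overlaps a gene on the opposite strand, by 44 to 281 bases, and whether the counting used strand is not given in the sources used here. The neighbour of CDKB2;1, AT1G76530, annotated as an auxin efflux carrier family protein with an overlap of 44 bases, was called in 17 Smart-seq2 nuclei. In 13 of these the kinase was called too, against 2.61 if the calls were independent. In the sum of p1 nuclei this neighbour held 6.21 CPM and the kinase 73.6, and in the sum of p2 nuclei 28.6 and 60.9. The neighbours of the other kinases were called together with them in 1 to 3 nuclei. The share of reads that passed between neighbours was not tested. Near-identical stretches were short. The longest run shared by 2 member transcripts was 41 bases in the CDKB1 pair, then 30 in the CYCB2 pair and 29 in the CDKB2 pair. Of 373 member values above 0, 40 were not whole numbers, and 35 of those were values of CYCB1;2.

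Within single nuclei the members were called in a minority of nuclei, and a few of those held most of the counts. CYCB1;2 was called in 30 of 93 Smart-seq2 nuclei of p1 (32.3%, 22.9 to 42.7) and in 12 of 93 of p2 (12.9%, 6.85 to 21.5). Its called nuclei held 7 to 4048 counts in p1, with a median of 111, and 6 to 506 in p2, with a median of 81. CDKB2;1 was called in 15 nuclei of p1 (16.1%, 9.32 to 25.2) and 14 of p2 (15.1%, 8.48 to 24), with medians of 467 and 111 counts. In CPM, its called nuclei ranged from 12.6 to 1260 in p1 and from 6.02 to 1599 in p2. Among the deeper nuclei the cyclin was called in 49.1% of 57 in p1 and 14.8% of 81 in p2, and the kinase in 26.3% and 17.3%. These were the members called in the most nuclei of p1, and in p2 the fourth CYCB1 gene also reached 12 nuclei.

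The remaining members were called in fewer nuclei. CYCB1;1 was called in 11 nuclei of p1 and 9 of p2, with medians of 112 and 90.6 CPM in the nuclei that had it. The third CYCB1 gene was called in 12 and 7, and the fourth in 13 and 12. The CYCB2 genes were called in 5 nuclei each of p1, and in 2 (the first) and 7 (the second) of p2. The second CDKB2 gene was called in 11 nuclei of p1 and 3 of p2, and the CDKB1 genes in 2 to 6 nuclei of either. Among the deeper nuclei, these 8 members were called in 3.51% to 21.1% of p1 and 2.47% to 14.8% of p2.

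**Figure D2:**
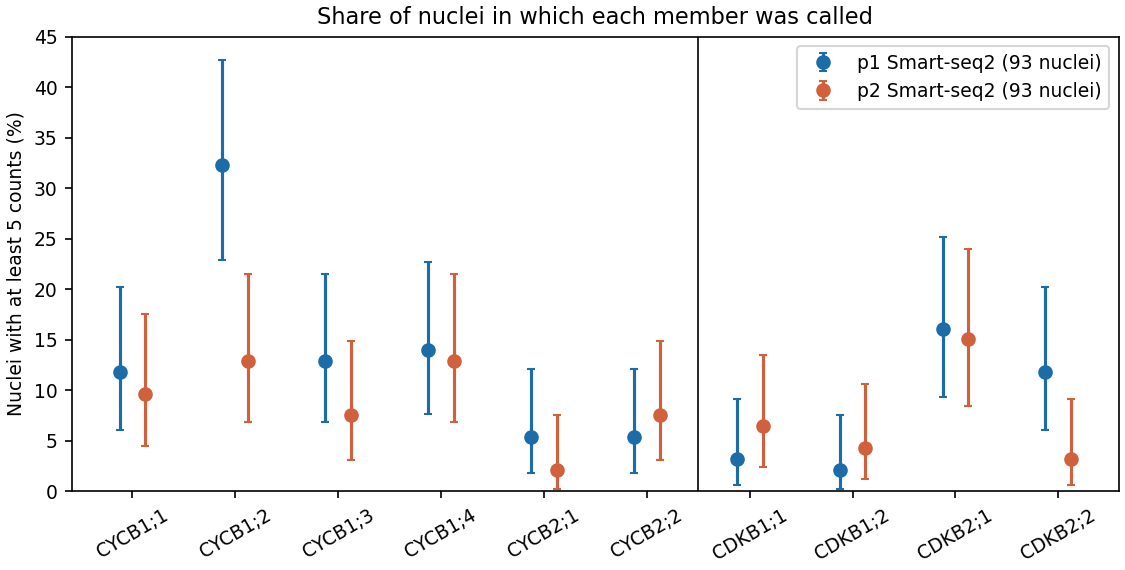
Percent of the 93 Smart-seq2 nuclei of p1 and of p2 in which each member reached 5 counts, with bars for the exact Clopper-Pearson 95% interval. CYCB1;2 stands at 32.3% in p1 and 12.9% in p2, and the CDKB1 genes are among the least often called.

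The counts of a member were gathered in a few nuclei. In p1, 3 nuclei held 78.2% of the CYCB1;1 counts, 55.5% of those of CYCB1;2 and 49.2% of those of CDKB2;1. In p2, 3 nuclei held 80.5%, 65.9% and 58.3% of them. Of the CYCB2;1 counts, 3 nuclei held 95.9% in p1, where 9 nuclei had a count, and 97.8% in p2, where 5 had one. Only 3 nuclei of p1 had a count of CDKB1;1 and 2 had one of CDKB1;2. Their share of 100% therefore holds by construction. Whether other genes found in as few nuclei are gathered to the same degree was not tested. The nucleus highest in CYCB1;1 had 978 CPM in p1 and 1596 CPM in p2, well above the 82.7 CPM of bulk p1 and the 78.2 CPM of bulk p2.

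The minimum of 5 counts matters in p1. Low counts, of 1 to 4, were looked at for the 7 members that had a p1 well of at least 500 counts. They were found in 34.4% of 125 combinations of a member and a well whose number put it in the same block of 8, or at the same place of another block, as the richest well for that member, against 11.6% of 519 other combinations. In p2 these shares were 6.74% of 89 and 2.96% of 371, for 5 members. Calls of at least 5 counts showed 18.4% against 12.9% in p1 and 7.87% against 8.89% in p2. In p1 the members differed in this, with 27.8% against 6.76% for CYCB1;1 and 22.2% against 8.11% for CDKB2;2, but 22.2% against 33.8% for CYCB1;2. Whether well numbers follow positions on a plate is not stated, and the part of this pattern in the shares was not tested. From 1 count, CYCB1;2 was found in 60.2% of the nuclei of p1 and 16.1% of those of p2. From 20 counts the shares were 30.1% and 8.60%.

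Some member was called in 49 of 93 Smart-seq2 nuclei of p1 (52.7%, 42.1 to 63.1) and 34 of 93 of p2 (36.6%, 26.8 to 47.2). Depth differed between these nuclei. Nuclei of p1 with a call had a median of 2013537 counts and those with none 6884.5, and in p2 the medians were 566742 and 307113. Among the deeper nuclei, some member was called in 46 of 57 of p1 (80.7%) and 34 of 81 of p2 (42%). After each deeper nucleus was thinned to 100000 counts, a member had at least 1 count in 84.2% (72.1 to 92.5) in p1 and 45.7% (34.6 to 57.1) in p2, and CYCB1;2 in 45.6% and 14.8%. Thinning evens the number of counts, not the molecules or genes behind them, and the minimum for a call was 1 count there.

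In a minority of nuclei several members were called together. At least 3 members were called in 17 nuclei of p1 (18.3%) and 11 of p2 (11.8%), and the most was 6 members, reached by 1 nucleus of p1 and 1 of p2. The share with at least 3 moved with the rule, to 40.9% in p1 and 15.1% in p2 from 1 count. When nuclei were thinned to 4200 counts it was 3.66% in p1 and 4.82% in p2, the other order. A cyclin together with a kinase was called in 19 nuclei of p1, against 11.1 if the calls were independent, and in 13 nuclei of p2, against 5.61. Among the deeper nuclei the same 19 and 13 stood against 16.9 in p1 and 6.44 in p2, so in p1 little excess was left. For scale, any member with all other nuclear genes called in at least 5 nuclei gave 1.14 times independence there, over p1 and p2 together. A cyclin without a kinase was found in 26 nuclei of p1 and 16 of p2, and a kinase without a cyclin in 4 and 5.

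**Figure D3:**
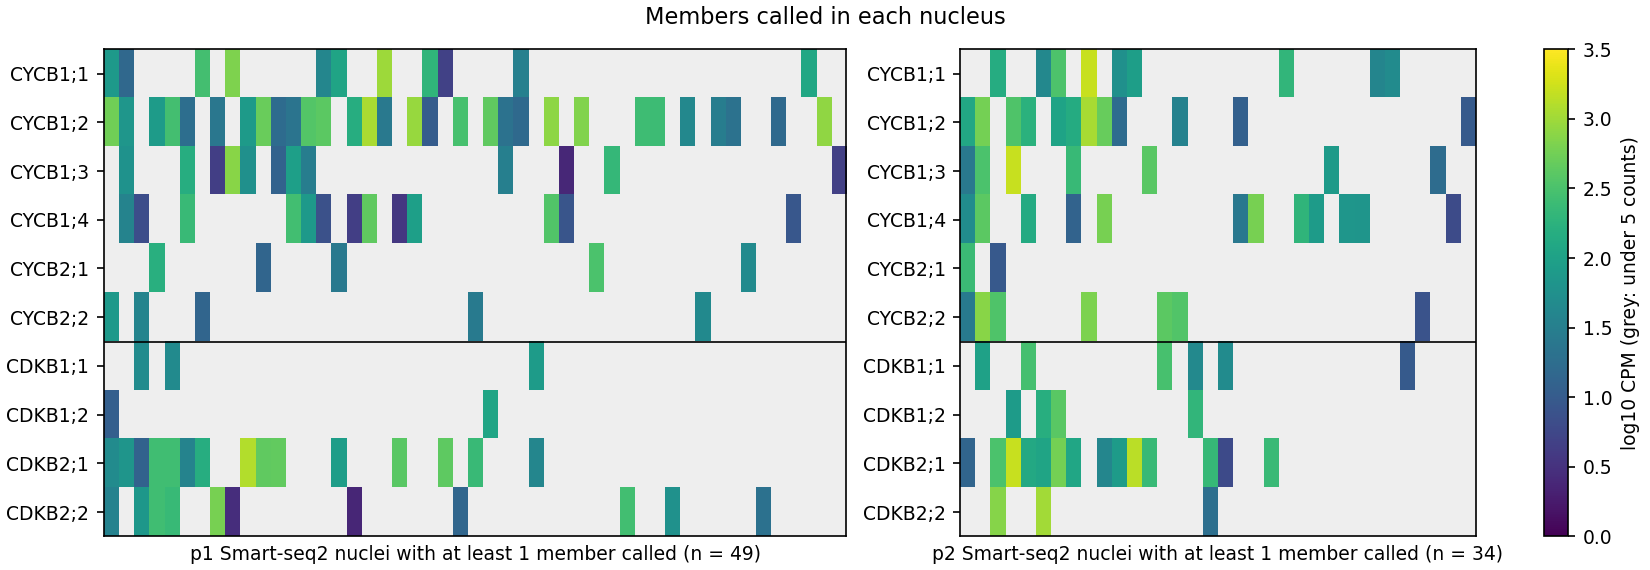
CPM on a log10 scale of each member in the Smart-seq2 nuclei with at least 1 member called, 49 in p1 and 34 in p2, 1 column per nucleus, with grey for under 5 counts. The nuclei are ordered by the number of members called, from 6 on the left to 1 on the right, and the row of CYCB1;2 is the most filled in p1.

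Pairs of members were called together more often than independence within p1 and within p2 would give. In the 138 deeper nuclei, the 45 pairs added up to 181 shared calls, against 110 under independence, a ratio of 1.64. Each member set against each of 16297 other nuclear genes gave 1.16. In all Smart-seq2 nuclei the ratio was 2.29 for the members and 1.57 for members with other genes. By kind, the deeper nuclei gave 1.5 for 2 cyclins, 1.62 for a cyclin with a kinase and 2.56 for 2 kinases, the last from 21 shared calls.

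The most frequent pair was CYCB1;2 with CDKB2;1, called together in 15 of the deeper nuclei against 9.44 under independence. The same cyclin shared 14 nuclei with CYCB1;4 (7.67 under independence) and 12 with CYCB1;3 (6.93), and those shared 8 with each other (3.56). CYCB1;1 shared 10 of its 19 nuclei with CDKB2;1 (4.19) but only 2 with the fourth CYCB1 gene (3.44) and 2 with the third (2.88). The CDKB2 paralogs shared 7 nuclei (3.41), and CDKB2;1 was above independence with each of the other 9 members, as it was with 72.3% of 16297 other nuclear genes. In all, 34 of 45 pairs were above independence and 11 below, against 59% above among 162970 pairs of a member with another nuclear gene. The 4 pairs never called together had 0.274 to 1.19 nuclei under independence, and each held a CDKB1 gene.

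**Figure D4:**
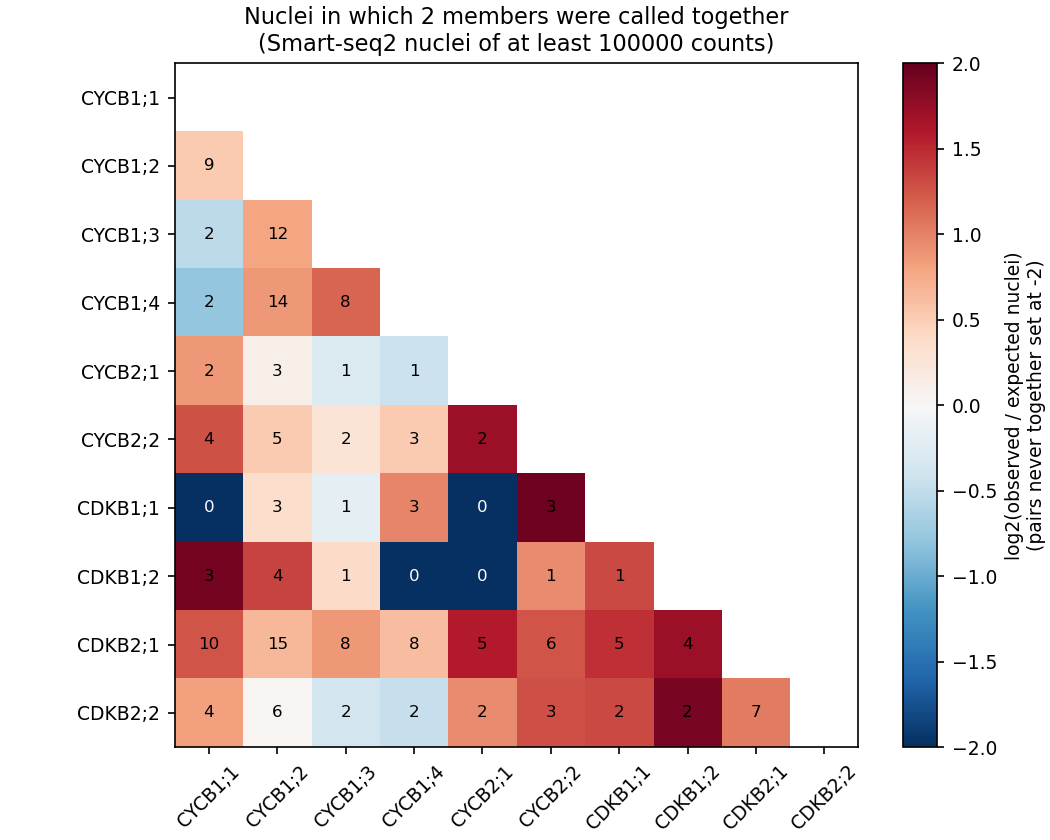
Nuclei in which each pair of members was called together (numbers) among 138 Smart-seq2 nuclei of at least 100000 counts, coloured by the log2 ratio to the number under independence within p1 and p2. CDKB2;1 is above 0 with every other member, while the first CYCB1 gene is below 0 with the third and the fourth at 2 nuclei each.

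Other cell cycle genes were compared with the 80 deeper nuclei that had any member called, again against independence within p1 and p2. Over all nuclear genes called in at least 5 nuclei, the ratio was 1.14 and 85% of genes were above 1. Some member was called in 46 of 57 of the deeper nuclei of p1 and 34 of 81 of p2. This caps the ratio, and at a lower value for a gene called mostly in p1. The vascular marker APL, with all 5 of its nuclei in p1 and all shared, reached only 1.24. Lists with unlike shares of calls in p1 and p2 are therefore not on the same scale. For each list, the genes that shared the most and the fewest nuclei with a member are named. These need not have the highest or the lowest ratio. Spindle and cytokinesis genes gave 1.31 with 11 of 11 above 1. They ran from 3xHMG-box2, a protein of mitotic chromosomes, which was called with a member in 45 of its 58 nuclei (38.7 under independence), to EDE1, a microtubule-binding protein, in 3 of 5 (2.87). A-type cyclins, which act from S phase into mitosis, gave 1.34 with 7 of 7 above 1. AT1G44110, the first CYCA1 gene, was called in 16 nuclei, every one of them with a member (9.81). With the fewest shared nuclei, AT5G11300, a CYCA2 gene, was called with a member in 6 of 6 (4.45). The 4 B-type cyclins that are not members gave 1.36 and were all above 1, from AT1G34460, a further CYCB1 gene, in 27 of its 35 nuclei (21.7) to AT1G16330, the CYCB3 gene, in 11 of 15 (8.23).

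The regulators of CDK activity spread more. CDK partners and regulators gave 1.3 with 6 of 7 above 1. AT3G48750, the A-type CDK that is active throughout the cycle, was called in 35 nuclei, 24 of them with a member, and WEE1, an inhibitory kinase, in 5 of 7 (3.71). AT1G66750, a CDK-activating kinase, was below 1 with 5 of 8 (5.29). The CDK subunits CKS1, in 21 of 23 (15.1), and CKS2, in 21 of 24 (14.7), lay higher, as examples chosen after their values were seen. The APC/C activators gave 1.24 with 5 of 5 above 1, from CCS52B in 49 of 62 (39.6) to CCS52A2 in 4 of 6 (3.29). The MYB3R factors gave 1.19 with 3 of 4 above 1, from MYB3R1 in 20 of 31 (18.8) to MYB3R3, known as a repressor of mitotic genes, in 7 of 13 (7.78). MYB3R4, an activator, was called with a member in 13 of 16 nuclei (9.04), an example also chosen after its value was seen.

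Genes of earlier phases lay close to the value of all genes, on a ratio with the same ceiling. D-type cyclins, which act before S phase, gave 1.16 with 7 of 8 above 1. By shared nuclei they ran from AT1G70210, the CYCD1 gene, in 45 of 63 (37.7) to AT2G22490, the CYCD2 gene, in 9 of 13 (7.78). The gene below 1 was AT4G37630, the CYCD5 gene, in 12 of 23 (12.4). S-phase genes gave 1.13 with 13 of 14 above 1, from the replicative histone HTR1 in 48 of 70 (45.3) to the replication licensing gene MCM2 in 5 of 9 (5.33). The stem cell and meristem markers gave 0.927, with CLV3 in 14 of 20 (14.2) and STM in 22 of 43 (24.6), both below 1. The remaining marker lists gave 1.28 for the organ boundary, 1.19 for vascular tissue, 1.13 for organ primordia, 1.11 for the epidermal layer and 1.0 for mesophyll, whose 3 genes were called in 137 or 138 of the 138 nuclei.

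Likeness to the members was measured as Spearman's rho across the deeper nuclei between the log2(CPM + 10) of a gene and that of the summed members, taken in 57 nuclei of p1 and 81 of p2 and averaged. The median over 7720 nuclear genes was 0.06 and the 99th percentile 0.28. IQD8, an IQ-domain protein, came first at 0.46, then AT1G49940, an uncharacterized protein, at 0.44 and AT4G14330, annotated as a P-loop nucleoside triphosphate hydrolase, at 0.41. SYP111, the cytokinesis syntaxin also called KNOLLE, followed at 0.38, ENODL14 at 0.37, the kinase gene AFC1 at 0.36 and AT2G37420, annotated as a microtubule motor, at 0.36. AT2G07815, annotated as a cytochrome C biogenesis ccmF-like protein, was next at 0.36. AT2G47500, annotated as a P-loop nucleoside triphosphate hydrolase, at 0.35 and AT4G38070, annotated as a bHLH131-like transcription factor, at 0.35 closed the first 10. In the order named, rho in p1 alone was 0.52, 0.43, 0.2, 0.33, 0.29, 0.53, 0.23, 0.35, 0.22 and 0.15. In p2 alone it was 0.4, 0.46, 0.61, 0.44, 0.45, 0.2, 0.49, 0.36, 0.48 and 0.55. For several of these genes the average thus rests mostly on p1 or mostly on p2. The nuclei of p1 or p2 share their preparation and differ in depth, so these are descriptions. A pseudocount of 1 CPM gave the same first 10 by construction, since it leaves the ranks of a gene's values unchanged. Without CYCB1;1 in the sum, 8 of the 10 genes were again among the first 10.

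Between the summed Smart-seq2 nuclei, p1 was higher than p2 for 5 members and lower for 5, against 47.5% of all genes tested that were higher. Of 19882 nuclear genes tested, 11.8% lay beyond 4-fold higher in p1 and 19.2% beyond 4-fold lower. No member lay beyond 4-fold higher and 3 of 10 lay beyond 4-fold lower. These were CDKB1;2 at 0.269 CPM in p1 against 9.59 in p2 (log2 ratio -5.16, -5.69 to -4.66), CYCB2;2 at 2.84 against 31.8 (-3.48) and CDKB1;1 at 1.90 against 14.7 (-2.95). With equal weight per nucleus these were -2.73, -3.85 and -2.18. The p1 value of the first rests on 36 counts in 2 nuclei, and without its richest nucleus the ratio was -6.55. CYCB1;2 was at 103 CPM in p1 against 43.9 in p2 (1.23), CYCB2;1 at 13.2 against 3.46 (1.93) and CYCB1;1 at 50.2 against 31.1 (0.69). The CDKB2 genes were nearer to each other, with 73.6 CPM in p1 against 60.9 in p2 (0.27) for the first and 38.1 against 25.6 (0.57) for the second. The third and the fourth CYCB1 gene were slightly lower in p1 (-0.42 and -0.31), and the ratio of the fourth was 0.59 when each nucleus had equal weight. A few nuclei set these sums, as given above.

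Smart-seq3 nuclei held few member counts. Genes found in few nuclei can be missed in groups of 8 or 12, and the shares of all genes given here were not matched for this. A member was called in 3 of 8 nuclei of p1 (37.5%, 8.52 to 75.5) and 3 of 12 of p2 (25%, 5.49 to 57.2). Each of the 6 cyclins had a lower CPM in Smart-seq3 than in Smart-seq2 nuclei in p1 and again in p2, as had 46.4% of 16971 nuclear genes. With equal weight per nucleus the second CYCB2 gene, with 1 count in Smart-seq3 nuclei of p1, was at 0.17 there. No member was higher in both, against 9.56% of genes. The medians over all genes were -1.19 in p1 and -2.42 in p2 on the log2 scale, those over the cyclins -3.37 and -4.84. Beyond 4-fold lower were 6 of the 9 members that could be compared in p1 and 8 of 10 in p2, against 37.8% and 54.2% of genes. In both p1 and p2 it was 5 of 9, against 19.3% of genes. Beyond 4-fold higher was 1 member in p1 and none in p2, against 17.5% and 10% of genes, and none in both, against 2.25%.

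CYCB1;1 had 0 counts in all 20 Smart-seq3 nuclei, against 50.2 CPM in Smart-seq2 nuclei of p1 and 31.1 in those of p2. Set at 3 counts per group, its log2 ratio was at most -3.89 in p1 and -5.89 in p2. CYCB1;2 had 11.3 CPM in Smart-seq3 against 103 in Smart-seq2 nuclei of p1, and 3.15 against 43.9 in p2 (-3.19 and -3.80). Of the cyclins, the third CYCB1 gene came nearest in p2, with 18.4 CPM in Smart-seq3 against 34.6 in Smart-seq2 nuclei, 89 of its 105 counts lying in 1 nucleus. In p1 it had 5.65 CPM against 25.8. The other 3 cyclins had 1 count each in Smart-seq3 nuclei of p1 and 0 to 2 in those of p2.

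The kinases again depended on single nuclei. CDKB2;1 had 72 counts in Smart-seq3 nuclei of p1, 67 of them in 1 nucleus (643 CPM), and 4 counts in p2. CDKB1;2 had 115 counts in Smart-seq3 nuclei of p2, all in 1 nucleus that also held 18 counts of CYCB1;2, and none in p1. CDKB1;1 was instead spread over the nuclei of p1, with 1 to 9 counts in each of the 8 (21 in all, 23.7 CPM against 1.90 in Smart-seq2 nuclei of p1). In p2 it had 4 counts over 12 nuclei (0.701 CPM against 14.7). At 1 to 4 counts in 7 of the 8 nuclei it was below the minimum for a call, and no p1 Smart-seq3 well without a nucleus was measured to set it against. The second CDKB2 gene had 0 counts in both Smart-seq3 groups, against 38.1 CPM in Smart-seq2 nuclei of p1 and 25.6 in those of p2.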

How the data were processed

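The table the authors deposited holds estimated counts, since 11.2% of the values above 0 had a fractional part. All values were rounded to whole numbers. The submitters' processing notes name TAIR10 and DESeq2 without a role. The aligner, the counting program, its strand setting and the annotation are not given in the sources used here. Of 29696 gene identifiers in the table, 28929 matched the RefSeq annotation of TAIR10.1. CPM, counts per 1000000, were taken over counts on nuclear, plastid and mitochondrial genes. Transposable elements and the reporter, 1.03% of counts, were left out. Totals per library are given with the results.

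A member was called in a nucleus from 5 counts. Intervals are exact at 95% (Clopper-Pearson for shares, Poisson for sums, binomial for ratios). Ratios were taken over all nuclear genes with at least 50 counts over all libraries of a comparison, those of p1 and p2 added together. There, 0 counts entered as 3. A gene with 3 or fewer counts in both libraries of a ratio had no value. The same held for a gene whose 0, set at 3, lay above the other library. Numbers under independence were computed within p1 and p2 and added. Thinning drew counts at random without replacement. Alternatives were other minimums, depths, scalings (TMM from edgeR 4.0.16, median of ratios), equal weight per nucleus and leaving out the richest nucleus. The calculations (Python 3.11.15, numpy 2.4.6, pandas 2.3.3, scipy 1.17.1, R 4.3.3) were tested on simulated data. No well was removed, and no pair of wells within a group held identical values.

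The genes named are all 10 members, the most and the least often shared gene of each list (among those called in at least 5 nuclei) and the 10 genes most like the members, among genes called in at least 10% of the deeper nuclei of p1 and of p2. The members, the lists and the minimum of 5 counts were chosen with earlier results of these data known.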

Additional observations from a re-analysis of the deposited data

Results flagged for a closer look

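In the 8 p1 Smart-seq3 nuclei, the highest nucleus lay far from the rest for 5 of the 7 members with a count there, by Dixon's ratio of gap to range (chance exceeds its critical value in about 1 in 20 groups of continuous values, a rate that does not hold for counts as low as these). CYCB1;3 had 58.5 CPM in its highest nucleus against 22.6 in the next, CYCB2;1 had 19.5 against 0, CYCB2;2 had 19.5 against 0 and CYCB1;4 had 4.92 against 0, and these highest values rest on 3, 1, 1 and 1 counts. A single count in 1 of 8 nuclei passes by construction, so the ratio tells nothing about the last 3 of these members. CDKB2;1 had 643 CPM, from 67 counts, in its highest nucleus against 19.5 in the next.

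The same contrast had opposite signs in p1 and p2 for 3 kinase values, and the difference was not tested. The log2 ratio of the bulk well over summed Smart-seq2 nuclei for CDKB1;2 was 4.63 in p1 and -1.26 in p2. The ratio of Smart-seq3 over Smart-seq2 nuclei was 3.64 in p1 and -4.39 in p2 for CDKB1;1, and 0.15 in p1 and -6.44 in p2 for CDKB2;1. The interval of the 0.15 is -0.21 to 0.48, which gives it no direction, and 67 of its 72 counts lay in 1 nucleus.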

How the results depend on the processing

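Of the values recomputed under the alternatives, 424 stayed within the counting interval of the reported value or, where none was computed, within 1.5 times of it (1 SD for the control wells), 126 moved further and 4 changed sign. A further 4 log2 ratios, whose intervals span 0, turned in sign and are counted among the first 2 of these. Some member was found in 84.9% of p1 and 51.6% of p2 nuclei from 1 count. In p1 it was 80.7% among nuclei of at least 100000 counts and 84.2% when these were thinned to 100000 counts. The ratio of observed to independent pairs was 1.5 from 1 count. Bulk over summed nuclei, without the nucleus richest in each member, gave medians of 1.95 (p1) and 2.13 (p2) for cyclins and -0.21 and -0.41 for kinases. The cyclin share in p1 sums was 73.4% at equal weight and 61% without the richest nucleus, which gave 55.2% in p2. These were added after the data were seen. For p1 over p2, CYCB1;4 turned to 0.59 at equal weight.

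Smart-seq3 over Smart-seq2 moved most. The cyclin median in p1 (-3.37) was -4.17 with TMM, -2.67 with median of ratios, -1.88 at equal weight and -2.76 without the richest nucleus. In p2 (-4.84) it was -4.02 with median of ratios and -3.53 at equal weight. The kinase median in p1 (0.15) was -0.66 with TMM and -2.48 without the richest nucleus, both turned in sign, and 0.84 and 2.37 with median of ratios and equal weight. In p2 (-5.0) these last settings gave -4.18 and -3.79, and leaving out the richest nucleus -4.15, when CDKB1;2 alone turned to -3.26. TMM moved the median of all genes in p1 to -1.92 and median of ratios to -0.58. Without either negative control well in turn, the member counts per well ranged from 0 to 1. The causes were not tested.

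No paired analysis was possible because each group counted as 1 sample and replicate numbers only name wells. Counting intervals leave out the spread between plants, pools and nuclei, and CDKB1;1, CDKB1;2 and CDKB2;2 had 2 to 13 counts per bulk well.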
